A study of Mus musculus with 14 samples.

Results

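The expression of the circadian clock genes was examined in parvalbumin (PV) neurons of the hippocampus after social stress. The members were 10 genes chosen by name, namely Arntl, Clock, Per1, Per2, Per3, Cry1, Cry2, Nr1d1, Nr1d2 and Dbp, of 39017 gene identifiers in the count table. All 10 passed the filter on low counts, and 21298 genes were tested in all. The lowest count of any member was 224 reads, for Per3 in 1 resilient library.

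The mice were males on a C57BL/6 background that carried PV-Cre together with a Cre-dependent EGFP-L10a allele (EGFP-L10a+; PV-Cre+), and they were 8 to 12 weeks old when experiments began. In every group, controls included, the Cre driver placed the tagged ribosomal protein L10a in PV-Cre cells, so that ribosome-bound mRNA could be pulled down from homogenate by translating ribosome affinity purification (TRAP), in which the 2 hippocampi of 1 mouse made 1 sample. Chronic social defeat stress (CSDS) consisted of 10 days of defeat by CD1 aggressors, after which mice with a social interaction ratio below 1 were called susceptible and the others resilient. The series held TRAP libraries of 4 non-defeated mice kept in pairs without defeat, 4 resilient mice and 3 susceptible mice, and 3 libraries of input, the total RNA of non-defeated hippocampus before TRAP. The tag marks every hippocampal cell in which PV-Cre was active, and fewer cells of a type cannot be told apart from less RNA per cell. The hour of tissue collection was not given in the sources used here.

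The mammalian clock is a transcriptional loop. BMAL1 (encoded by Arntl) and CLOCK bind E-box DNA and activate the Per, Cry, Nr1d and Dbp genes, and PER and CRY proteins return to the nucleus to block their own activators. A second loop runs through the REV-ERB receptors (Nr1d1, Nr1d2), which repress Arntl by competing with ROR activators, while DBP carries the rhythm to output genes through D-box sites. In the hippocampus, as in most tissues, many of these transcripts oscillate over the day, and Per1 also responds to glucocorticoids and to neuronal activity.

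Upstream sequences are shown for 5 members, because the loop acts through short motifs in such stretches. These members had an unadjusted p under 0.05 (edgeR) in susceptible against resilient mice. None of them passed adjustment in the fit to all 14 libraries. The sequences were taken from RefSeq on GRCm38.p6, on the strand of the gene. They come from the 250 bases before the annotated start, without bases that lie in an annotated exon. Capitals mark motif matches found by search on both strands, and 9 of the 10 members had an entry. The letters searched were CACGTG (E-box), CACGTT or AACGTG (E'-box), TTATGTAA or TTACATAA (D-box), AGGTCA or TGACCT (the core of the element bound by ROR and REV-ERB receptors, called the ROR core here) and TGACGTCA (CRE).
Nr1d2 (chr14:18239128-18239356, minus strand): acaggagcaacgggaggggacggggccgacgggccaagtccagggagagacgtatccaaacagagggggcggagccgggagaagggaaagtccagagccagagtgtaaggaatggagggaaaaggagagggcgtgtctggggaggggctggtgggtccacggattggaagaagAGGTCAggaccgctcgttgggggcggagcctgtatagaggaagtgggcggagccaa
Cry1 (chr10:85185065-85185304, minus strand): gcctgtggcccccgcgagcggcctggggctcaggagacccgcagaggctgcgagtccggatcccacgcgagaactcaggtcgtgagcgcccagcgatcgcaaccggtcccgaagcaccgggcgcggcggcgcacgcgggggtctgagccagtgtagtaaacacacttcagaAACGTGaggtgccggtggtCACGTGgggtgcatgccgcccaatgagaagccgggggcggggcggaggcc
Nr1d1 (chr11:98775378-98775627, minus strand): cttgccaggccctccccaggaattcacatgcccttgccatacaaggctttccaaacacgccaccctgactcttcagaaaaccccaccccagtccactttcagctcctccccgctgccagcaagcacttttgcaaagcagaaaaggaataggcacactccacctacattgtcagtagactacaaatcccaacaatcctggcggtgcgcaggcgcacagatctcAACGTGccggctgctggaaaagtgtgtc
Cry2 (chr2:92434070-92434319, minus strand): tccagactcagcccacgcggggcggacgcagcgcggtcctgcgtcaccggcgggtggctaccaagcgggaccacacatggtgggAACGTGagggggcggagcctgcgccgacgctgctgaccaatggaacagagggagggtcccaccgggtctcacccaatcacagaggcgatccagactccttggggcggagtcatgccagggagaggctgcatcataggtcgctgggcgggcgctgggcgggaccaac
Per1, first of 2 starts (chr11:69098699-69098947, plus strand): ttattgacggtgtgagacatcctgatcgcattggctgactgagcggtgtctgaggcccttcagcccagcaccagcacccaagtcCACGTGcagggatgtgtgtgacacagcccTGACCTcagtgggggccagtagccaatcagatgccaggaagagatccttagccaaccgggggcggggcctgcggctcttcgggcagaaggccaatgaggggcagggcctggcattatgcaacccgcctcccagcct

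Counted from the RefSeq start, the ROR core of Nr1d2 began 77 bases upstream. Cry1 held an E-box at 60 bases and an E'-box at 79 bases, in the same short stretch. The E'-box of Nr1d1 began at 28 bases and that of Cry2 at 166 bases. The first start of Per1 held an E-box at 166 bases and a ROR core at 137 bases, and its second start held none of the letters searched. Of the other members, Per3 held D-boxes at 205 and 158 bases, and the third start of Clock held a ROR core at 119 bases. The first 2 starts of Clock, Arntl and Dbp held none of these letters in the window. Only 91 bases were searched for Dbp, and 83 and 106 bases for the first 2 starts of Clock. The background was 32851 full upstream windows of 250 bases. An E-box was present in 6.02% of these, an E'-box in 3.85%, a D-box in 0.819% and a CRE in 1.55%. The ROR core was the most common, in 4607 windows, beside 1978 windows with an E-box. Several member windows were shorter, such as those of Nr1d2 (229 bases) and Cry1 (240 bases), so these shares do not apply to them directly. No member window held a CRE. A match says only that the letters are present.

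The libraries held 64110214 to 94726962 counts each. Pvalb, which encodes the calcium buffer parvalbumin, was higher in TRAP than in input (log2 fold change 5.85, adjusted p = 7.89e-11, edgeR), and the 7 PV neuron markers summed to 3144 to 4364 normalized CPM (read counts scaled to a common library size) in TRAP against 521 to 621 CPM in input. All 5 excitatory neuron markers were lower in non-defeated TRAP than in input (628 to 829 CPM against 1808 to 2171 CPM), as were all 6 oligodendrocyte markers (796 to 1192 CPM against 2547 to 2861 CPM) and all 5 microglial markers (22.5 to 30.3 CPM against 56.8 to 64.1 CPM). Astrocyte markers summed to 201 to 432 CPM in TRAP and 693 to 739 CPM in input, those of oligodendrocyte precursors to 3.09 to 7.46 CPM and 10.04 to 13.3 CPM, those of other interneurons to 420.5 to 866 CPM and 333 to 361 CPM, those of endothelial cells to 2.75 to 3.82 CPM in input and 3.58 to 18.9 CPM in TRAP, and those of mural cells to 19.7 to 20.9 CPM in input and 26.1 to 57.9 CPM in TRAP. The sums of other interneurons and mural cells joined markers of both directions (non-defeated TRAP against input, edgeR, adjusted p under 0.05). Of the 5 other interneuron markers, 2 were higher (log2 fold change 1.61 for Sst and 2.79 for Npy). The other 3 were lower (-2.29 for Vip, -1.42 for Calb2 and -0.82 for Cck). Of the 4 mural markers, Acta2 was higher (2.03), Rgs5 was lower (-0.82) and 2 were not called. Of the 56 markers, only Cdh5 was at 0 counts in any library. The thalamic markers Tcf7l2, Lef1 and Prkcd stood apart in 4 TRAP libraries, at 501 CPM in resilient 7, 278 CPM in non-defeated 9, 172 CPM in non-defeated 11 and 102 CPM in susceptible 10, against 17.0 to 38.0 CPM in the other TRAP libraries and 49.0 to 272 CPM in input. Each comparison below was therefore also fitted without those 4 libraries, which left 7 TRAP libraries.

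The level of the members per length was described first, in RPKM (CPM divided by the exonic length of the gene in kilobases). In TRAP of non-defeated mice (n = 4, mean ± SD), Nr1d1 stood highest at 37.1 ± 1.8 RPKM. It was followed by Cry2 at 26.7 ± 3.8 RPKM, Nr1d2 at 26.2 ± 5.3 RPKM and Dbp at 24.1 ± 2.4 RPKM. Cry2 and Nr1d2, and Nr1d2 and Dbp, overlapped in their library values and so did not separate. Lower levels were found for Cry1 (7.39 ± 1.47 RPKM), Per1 (4.46 ± 0.55 RPKM) and Arntl (2.83 ± 0.56 RPKM). Per2 (1.80 ± 0.38 RPKM) and Clock (1.65 ± 0.17 RPKM) overlapped each other, and Per3 was the lowest (0.475 ± 0.027 RPKM). Nr1d1, Nr1d2, Cry2 and Dbp thus lay above the genes of the activators and the Per family on this scale.

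The same order did not hold throughout in input (n = 3). Nr1d1 (50.3 ± 0.3 RPKM) and Cry2 (41.9 ± 2.6 RPKM) again came first, but Dbp (27.4 ± 0.6 RPKM) then lay above Nr1d2 (20.0 ± 1.0 RPKM) with no overlap. Arntl (4.78 ± 0.39 RPKM) and Per2 (4.47 ± 0.21 RPKM) overlapped each other, and both lay above Per1 (3.25 ± 0.05 RPKM). In the resilient group Cry2, Dbp and Nr1d2 formed 1 overlapping run, from 25.3 to 28.0 RPKM in mean. In the susceptible group Nr1d2 (16.1 ± 2.2 RPKM) lay below Dbp (20.8 ± 3.2 RPKM) with no overlap, and Cry1 (5.78 ± 0.42 RPKM) overlapped Per1 (4.83 ± 0.87 RPKM).

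**Figure D1:**
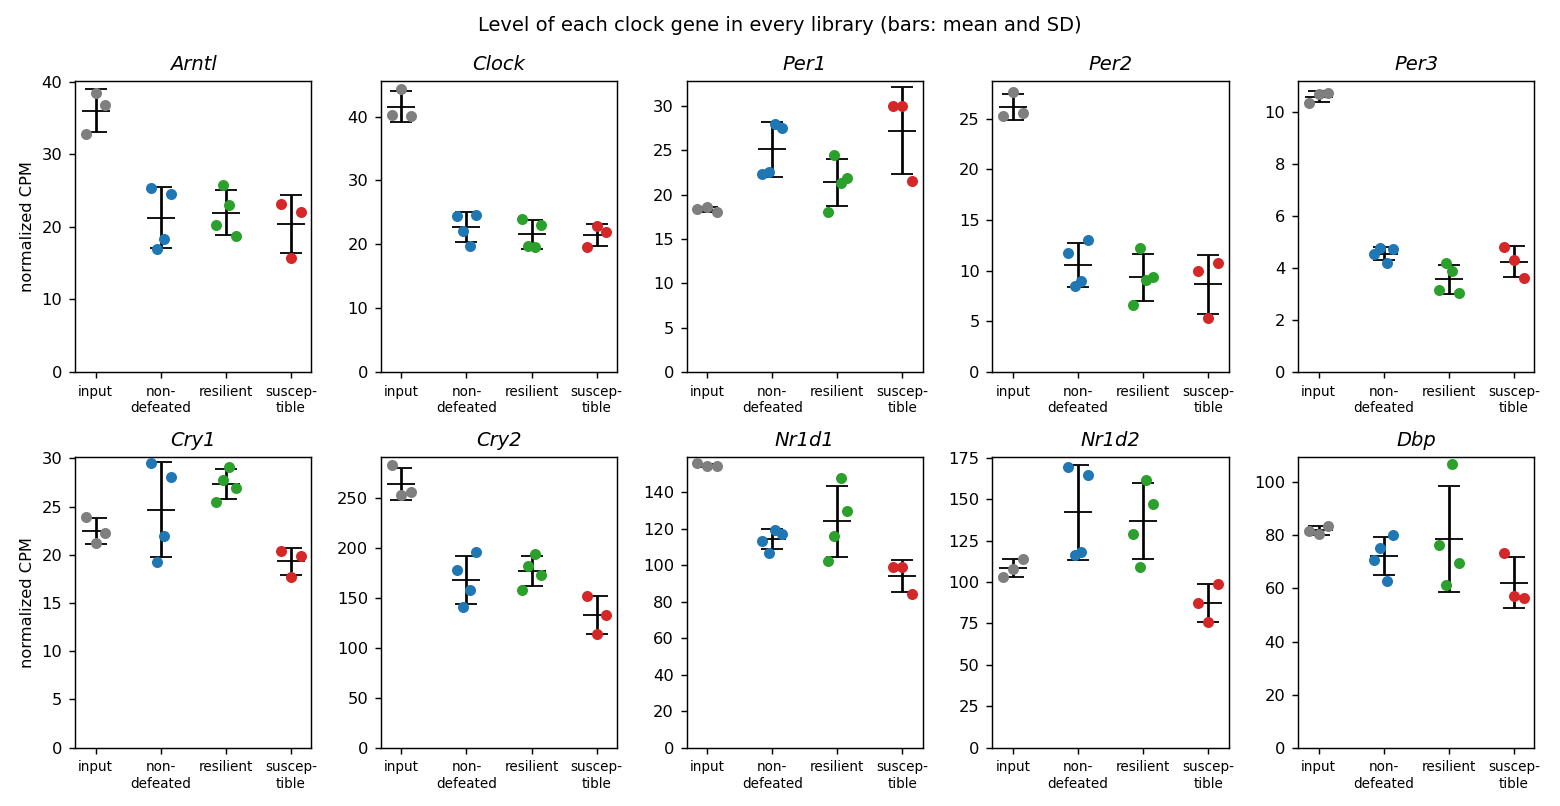
Normalized CPM of each of the 10 clock genes (y axis, starting at 0) in every library, with input in grey, non-defeated in blue, resilient in green and susceptible in red. Points are libraries, and bars give the mean and SD of 3 or 4 libraries. The susceptible points of Cry1, Cry2, Nr1d1 and Nr1d2 lie below every resilient point, and the input points of Clock, Per2 and Per3 lie above every TRAP point.

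TRAP of non-defeated mice was compared with input to ask which clock transcripts were over- or under-represented in the pulldown from PV-Cre cells relative to whole hippocampus. This sets ribosome-bound RNA against total RNA. TRAP libraries still held reads of excitatory neuron and glial markers, as given above. The part of RNA carried over from such cells in the TRAP levels of the members was not tested. Of the 10 members, 6 were lower in TRAP and 2 were higher at an adjusted p under 0.05 (edgeR quasi-likelihood test, Benjamini-Hochberg over all genes tested). Across all genes tested, 55% were called, 27.6% lower and 27.4% higher. The groups did not overlap for 9 members, and for 62% of all genes. The median log2 fold change of the members was -0.54, beside -0.0411 over all genes.

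The activator genes were both lower in TRAP. Arntl (ENSMUSG00000055116, chr7:113207465-113314126, plus strand), which encodes BMAL1, was at 17.0, 18.3, 24.4 and 25.3 CPM in non-defeated TRAP and at 32.8, 36.8 and 38.4 CPM in input. Its log2 fold change was -0.76 (SE 0.17, adjusted p = 0.00139). Clock (ENSMUSG00000029238, chr5:76209868-76304792, minus strand), the partner of BMAL1 in the activator, was at 19.7, 22.1, 24.5 and 24.5 CPM in TRAP and at 40.1, 40.2 and 44.3 CPM in input. Every TRAP value lay below every input value, with a log2 fold change of -0.87 (SE 0.11, adjusted p = 9.20e-06).

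The 3 Per genes, which encode partners of the CRY repressors, did not move together. Per2 (ENSMUSG00000055866, chr1:91415982-91459324, minus strand) was at 8.45, 8.97, 11.8 and 13 CPM in TRAP and at 25.3, 25.6 and 27.6 CPM in input, and Per3 (ENSMUSG00000028957, chr4:151003652-151044665, minus strand) was at 4.21, 4.53, 4.73 and 4.77 CPM against 10.4, 10.7 and 10.8 CPM. Per2 was lower by a log2 fold change of -1.31 (SE 0.23, adjusted p = 0.000273) and Per3 by -1.22 (SE 0.14, adjusted p = 5.65e-06), the 2 lowest fold changes among the members. Per1 (ENSMUSG00000020893, chr11:69095217-69109960, plus strand) was at 22.4, 22.5, 27.6 and 28.0 CPM in TRAP and at 18.0, 18.3 and 18.6 CPM in input. It was higher in TRAP (log2 fold change 0.46, SE 0.14, adjusted p = 0.0115), a call that was lost when libraries were scaled by total counts alone (0.27, adjusted p = 0.112).

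Among the other repressors, Cry2 (ENSMUSG00000068742, chr2:92403646-92434043, minus strand) was at 141, 158, 179 and 197 CPM in TRAP and at 253, 257 and 283 CPM in input, and was lower (log2 fold change -0.65, SE 0.12, adjusted p = 0.000327). Nr1d1 (ENSMUSG00000020889, chr11:98767932-98775333, minus strand), which encodes REV-ERB alpha, was at 107, 113, 117 and 119 CPM in TRAP and at 154, 154 and 156 CPM in input, and was lower (-0.44, SE 0.11, adjusted p = 0.00293). Its relative Nr1d2 (ENSMUSG00000021775, chr14:18204054-18239127, minus strand), which encodes REV-ERB beta, was at 116, 118, 164 and 169 CPM in TRAP and at 103, 108 and 114 CPM in input. The difference of Nr1d2 was 0.39 (SE 0.16, adjusted p = 0.0480), but the call was lost under 9 of 15 other fits, among them scaling by total counts (0.20, adjusted p = 0.261) and leaving out the libraries with thalamic markers (0.12, adjusted p = 0.460). Cry1 (ENSMUSG00000020038, chr10:85131700-85185064, minus strand) was at 19.2, 21.9, 28.0 and 29.5 CPM in TRAP and at 21.2, 22.3 and 23.9 CPM in input, so the groups overlapped (log2 fold change 0.14, 95% interval -0.15 to 0.42, adjusted p = 0.401), and its sign turned with total counts (-0.05) and without the thalamic libraries (-0.12). Dbp (ENSMUSG00000059824, chr7:45705088-45710203, plus strand) was at 62.9, 70.8, 75.3 and 80.0 CPM in TRAP and at 80.4, 81.5 and 83.7 CPM in input (log2 fold change -0.18, 95% interval -0.52 to 0.16, adjusted p = 0.347).

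**Figure D2:**
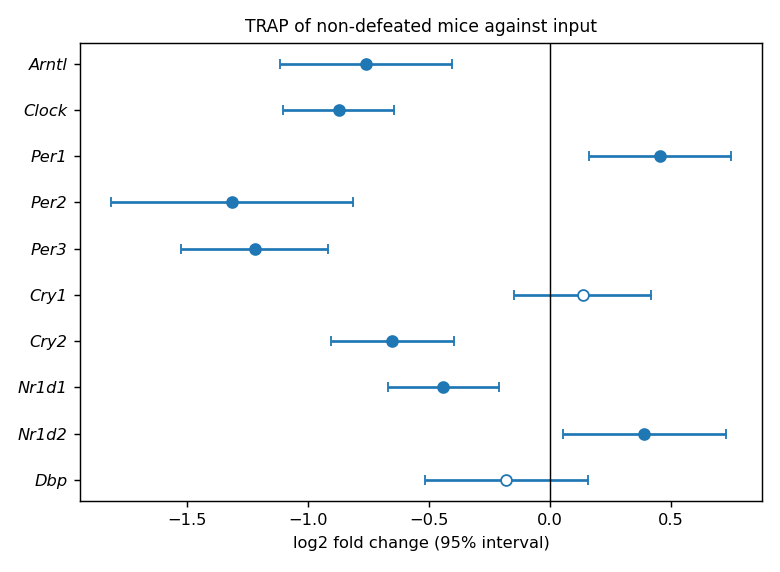
Log2 fold change of each clock gene in TRAP of non-defeated mice (n = 4) against input (n = 3) on the x axis, with points for the edgeR estimate, bars for the 95% interval and filled points for an adjusted p under 0.05. Per2 (-1.31) and Per3 (-1.22) lie farthest to the left, Per1 (0.46) and Nr1d2 (0.39) lie to the right, and the bars of Cry1 and Dbp cross 0.

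Several members share exonic bases with a gene on the opposite strand, and the cDNA kits named in the study's methods do not keep strand, so reads of such pairs cannot be told apart. Nr1d1 shares 263 bases (8.55% of its exonic length) with Thra, a thyroid hormone receptor gene, Dbp shares 539 bases (18%) with Sphk2, a sphingosine kinase gene, and Cry2 shares 295 bases (4.67%) with D930015M05Rik. In TRAP against input Thra had a log2 fold change of -0.53 (adjusted p = 0.00612), Sphk2 of -0.13 and D930015M05Rik of -0.66 (adjusted p = 0.00100). In susceptible against resilient mice the values were 0.26 for Thra (adjusted p = 0.323), -0.17 for Sphk2 (adjusted p = 0.359) and -0.59 for D930015M05Rik (SE 0.14, adjusted p = 0.0507).

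Resilient mice were compared with non-defeated mice to ask whether the clock genes differed after defeat in mice whose interaction ratio was at least 1. None of the 10 members was called, as was the case for 0% of all genes (edgeR, adjusted p). At an unadjusted p under 0.05, 1 member was lower, with 4.38% of all genes past that value and 2.16% past it and lower. DESeq2 also gave 0 members at its adjusted p, beside 0% of all genes, and 1 at its unadjusted p, beside 3.26%. The groups did not overlap for 1 member, and for 2.35% of all genes. The member was Per3, at 3.04, 3.15, 3.90 and 4.20 CPM in resilient mice and at 4.21, 4.53, 4.73 and 4.77 CPM in non-defeated mice. The highest resilient value of Per3 lay just below the lowest non-defeated value (log2 fold change -0.35, SE 0.13, edgeR unadjusted p = 0.0195, adjusted p = 1). The exact permutation test gave an unadjusted p = 0.0286, the smallest that 4 against 4 libraries allow. Groups of this size without overlap always give that value, so it adds nothing to the lack of overlap.

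The other members had log2 fold changes between -0.23 for Per1 and 0.15 for Cry1. The 95% intervals still allowed sizeable differences, from -0.50 to 0.04 for Per1 and from -0.64 to 0.29 for Per2. The median over the members was -0.0047. Without the libraries with thalamic markers, 0 members and 0% of all genes were called, and Cry1 had the smallest p (log2 fold change 0.37, unadjusted p = 0.00593, adjusted p = 0.227, edgeR).

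Susceptible mice were compared with the same non-defeated mice, so this comparison shares its controls with the one before. None of the 10 members was called, beside 0.0376% of all genes, of which 0.0235% lower. At an unadjusted p under 0.05, 4 members were lower, beside 13.3% of all genes in either direction and 6.7% lower. These were Nr1d2, Cry2, Cry1 and Nr1d1. DESeq2 called 1 member, Nr1d2 (adjusted p = 0.0201), beside 0.617% of the genes it gave an adjusted p. In all, 9 of the 10 members had a negative log2 fold change, with a median of -0.25 beside 0.0101 over all genes. The groups did not overlap for 2 members, Nr1d1 and Nr1d2, and for 8.62% of all genes.

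Nr1d2 was at 75.7, 87.1 and 99.1 CPM in susceptible mice, and all 3 values lay below the 4 non-defeated values given above. Its log2 fold change was -0.70 (SE 0.16, 95% interval -1.04 to -0.36, edgeR unadjusted p = 0.000567, adjusted p = 0.132). The exact permutation test gave p = 0.0571, the smallest that 3 against 4 libraries allow and the value that such groups without overlap always give. The non-defeated values of Nr1d2 fell into a lower and a higher pair. The higher pair came from the non-defeated libraries 9 and 11, which carry the highest running numbers of that group and held thalamic markers. Without the 4 libraries with those markers the log2 fold change was -0.42 (unadjusted p = 0.0164, adjusted p = 0.463).

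Nr1d1 was at 84.1, 99.0 and 99.0 CPM in susceptible mice, with no overlap with the non-defeated group (log2 fold change -0.28, SE 0.11, edgeR unadjusted p = 0.0213, adjusted p = 0.306). Cry1, at 17.7, 19.8 and 20.4 CPM, overlapped the non-defeated range (-0.35, SE 0.13, edgeR unadjusted p = 0.0182, adjusted p = 0.290), and without the libraries with thalamic markers its value was -0.13. Cry2, at 114, 133 and 152 CPM, overlapped too (-0.34, SE 0.12, edgeR unadjusted p = 0.0129, adjusted p = 0.266). The remaining values were -0.28 for Per2, -0.22 for Dbp, -0.10 for Per3, -0.08 for Clock, -0.06 for Arntl and 0.11 for Per1, none past an unadjusted p of 0.05.

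Susceptible mice were compared with resilient mice, which had been through the same defeat, to ask which transcripts differed with the behavioral outcome. Nr1d2, Cry1, Cry2 and Nr1d1 were lower in every susceptible library than in every resilient library, by 24.2% to 36.2% in fitted level. The other 6 members overlapped between the groups, namely the activator genes Arntl and Clock, the output gene Dbp and the 3 Per genes, whose products also act as repressors. None of the 10 members reached an adjusted p under 0.05, beside 1.89% of all genes, of which 0.873% lower and 1.02% higher. At an unadjusted p under 0.05, 4 members were lower and 1 was higher, beside 20.9% of all genes, of which 10.1% lower and 10.8% higher. DESeq2 called 3 members, Cry1, Cry2 and Nr1d2, beside 6.01% of the genes it gave an adjusted p. The groups did not overlap for 4 members, and for 15.1% of all genes. The median over the members was -0.22, beside 0.00281 over all genes.

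Nr1d2 was at 75.7, 87.1 and 99.1 CPM in susceptible mice and at 109, 129, 147 and 162 CPM in resilient mice. The log2 fold change was -0.65 (SE 0.16, 95% interval -0.99 to -0.31, edgeR unadjusted p = 0.00109, adjusted p = 0.0530), which left it just outside the threshold. Nr1d1 was at 84.1, 99.0 and 99.0 CPM in susceptible mice and at 102, 116, 130 and 148 CPM in resilient mice (log2 fold change -0.40, SE 0.11, 95% interval -0.63 to -0.17, edgeR unadjusted p = 0.00233, adjusted p = 0.0671). The 2 REV-ERB genes thus lay on the same side in all 7 libraries, with a gap of 3.28 CPM between the nearest values of Nr1d1.

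Cry1 was at 17.7, 19.8 and 20.4 CPM in susceptible mice and at 25.4, 26.9, 27.7 and 29.1 CPM in resilient mice. Its log2 fold change was -0.50 (SE 0.13, 95% interval -0.78 to -0.22, edgeR unadjusted p = 0.00202, adjusted p = 0.0648). Cry2 was at 114, 133 and 152 CPM in susceptible mice and at 158, 174, 183 and 195 CPM in resilient mice (log2 fold change -0.41, SE 0.12, 95% interval -0.67 to -0.16, edgeR unadjusted p = 0.00390, adjusted p = 0.0803). The spread within each group was narrow for Cry1, whose groups stood 5.05 CPM apart, and wider for Cry2. For each of Nr1d2, Nr1d1, Cry1 and Cry2 the exact permutation test gave p = 0.0571, the smallest that 3 against 4 libraries allow. Groups of this size without overlap always give that value, so it restates the lack of overlap.

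The count of members called depended on the fit, as did the share of all genes called. The likelihood ratio test called all 4 (adjusted p = 0.00857 for Nr1d2, 0.0252 for Cry1, 0.0303 for Nr1d1 and 0.0412 for Cry2, edgeR), beside 5.16% of all genes. DESeq2 on the 7 libraries called Cry1 (adjusted p = 0.00233), Nr1d2 (0.00601) and Cry2 (0.0449). Without the 4 libraries with thalamic markers 3 members were called by edgeR, namely Cry1 (-0.50, adjusted p = 0.0251), Cry2 (-0.47, 0.0251) and Nr1d2 (-0.55, 0.0394), beside 7.06% of all genes. A fit to TRAP libraries alone called no member, with a smallest adjusted p of 0.118 (edgeR), and 0.00482% of all genes.

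The positive differences came from the Per genes. Per1 was at 21.5, 30.0 and 30.0 CPM in susceptible mice and at 18.0, 21.3, 21.9 and 24.5 CPM in resilient mice, so 1 susceptible library lay within the resilient range (log2 fold change 0.35, SE 0.14, edgeR unadjusted p = 0.0227, adjusted p = 0.167). Per3 was at 3.61, 4.31 and 4.81 CPM against 3.04, 3.15, 3.90 and 4.20 CPM (0.25, SE 0.14, edgeR unadjusted p = 0.105). Per2, at 5.32, 9.96 and 10.7 CPM against 6.67, 9.04, 9.39 and 12.3 CPM, overlapped (-0.11, 95% interval -0.62 to 0.40). The lowest values of Per2 came from susceptible 2 (5.32 CPM) and resilient 3 (6.67 CPM).

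Dbp, the output gene, was at 56.4, 57.1 and 73.2 CPM in susceptible mice and at 61.3, 69.6, 76.4 and 107 CPM in resilient mice (log2 fold change -0.34, 95% interval -0.68 to 0.0033, edgeR unadjusted p = 0.0520, adjusted p = 0.243). Its highest value came from resilient 7, the library with the highest thalamic markers, and without that library the fold change was -0.15. Arntl was at 15.8, 22.1 and 23.2 CPM against 18.7, 20.2, 23.0 and 25.7 CPM (-0.11, 95% interval -0.47 to 0.25). Clock was at 19.5, 21.9 and 22.9 CPM against 19.5, 19.8, 23.0 and 24.0 CPM (-0.01, 95% interval -0.24 to 0.22, a sign that turned under other scalings).

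**Figure D3:**
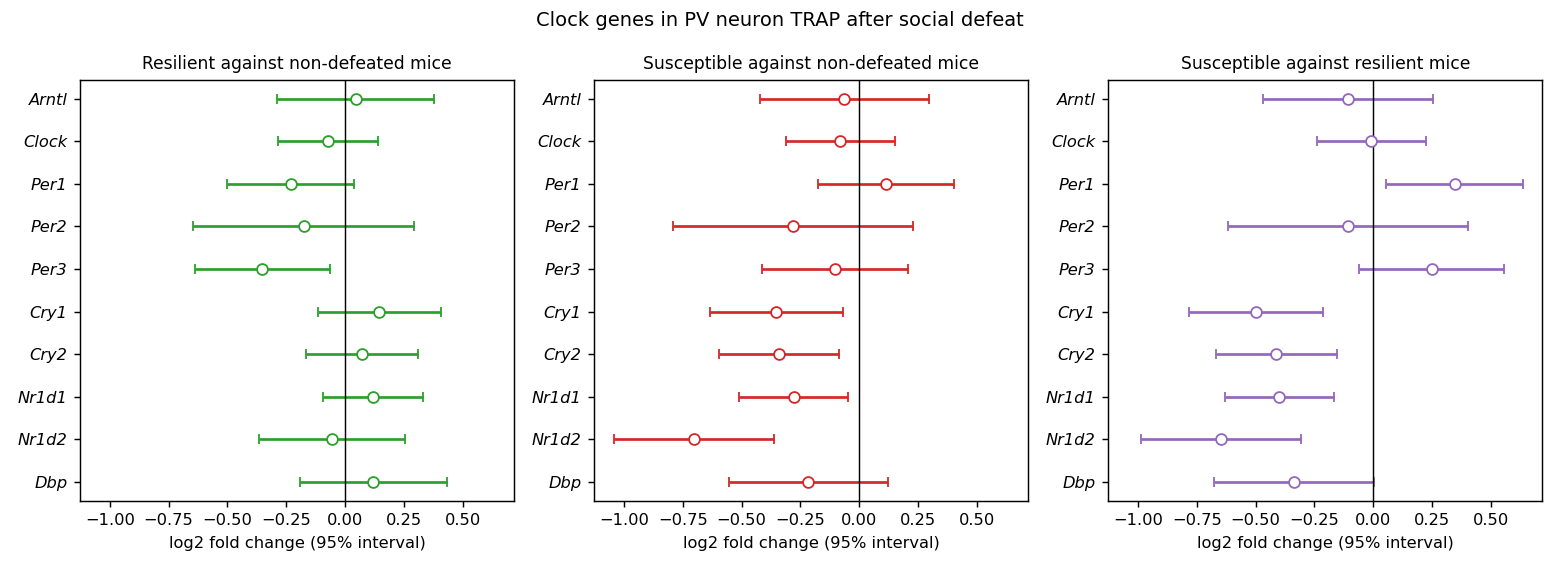
Log2 fold change (x axis) of each clock gene for resilient against non-defeated, susceptible against non-defeated and susceptible against resilient mice, with the edgeR estimate as a point and its 95% interval as a bar. Open points mark an adjusted p of 0.05 or more, and all points are open. In the right panel Nr1d2 (-0.65), Cry1 (-0.50), Cry2 (-0.41) and Nr1d1 (-0.40) lie left of 0 with their intervals, and Per1 (0.35) lies right of it.

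Other signals moved with the susceptible group. The 5 erythroid markers, which include the hemoglobin genes, summed to 890, 917 and 1239 CPM in susceptible mice, to 129 to 598 CPM in resilient mice, to 116 to 243 CPM in non-defeated TRAP and to 780 to 987 CPM in input, with 4 of 5 called higher in susceptible than in resilient mice. The 3 choroid plexus markers summed to 411, 425 and 677 CPM in susceptible mice, to 154 to 424 CPM in resilient mice, to 185 to 293 CPM in non-defeated TRAP and to 657 to 740 CPM in input, with 0 of 3 called. The 5 endothelial markers summed to 9.02 to 13.3 CPM in susceptible mice, to 4.73 to 18.9 CPM in resilient mice and to 3.58 to 6.76 CPM in non-defeated TRAP. The susceptible range lay above the non-defeated range and within the resilient range, with 0 of 5 called in either comparison. The 4 mural markers summed to 40.8 to 57.9 CPM in susceptible, 32.6 to 49.3 CPM in resilient and 26.1 to 43.0 CPM in non-defeated mice, all 4 with positive fold changes of susceptible mice in both comparisons and 0 called. The 5 markers of other interneurons summed to 489.9 to 866 CPM in susceptible, 428 to 781 CPM in resilient and 420.5 to 620 CPM in non-defeated mice, and 0 were called. In both comparisons 4 of the 5 were positive and 1 was negative, Calb2 (mean 27.3 CPM against 36.2 CPM in resilient and 29.2 CPM in non-defeated mice). Sst overlapped both groups, at log2 fold changes of 0.65 against resilient and 0.68 against non-defeated mice. Cck, at 107 to 126 CPM in susceptible mice, did not overlap resilient (80.8 to 103 CPM) or non-defeated mice (90.0 to 105 CPM). No PV neuron marker was called between stress groups. The part of these signals in the differences of the clock genes was not tested.

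The library names carry running numbers, 1 to 11 in TRAP, whose meaning the sources used here did not give, so each difference was also taken within the numbers 1 to 6 and within 7 to 11. The 4 TRAP libraries with thalamic markers carry the numbers 7, 9, 10 and 11. The fit without them thus kept the TRAP libraries 1 to 6 and resilient 8, so it and this split are not separate checks. In susceptible against resilient mice the differences in mean log2 CPM within the numbers 1 to 6 (2 against 2 libraries) were -0.50 for Cry1, -0.46 for Cry2, -0.26 for Nr1d1 and -0.45 for Nr1d2. Within the numbers 7 to 11 (1 against 2 libraries) they were -0.46, -0.27, -0.48 and -0.82 in the same order. Per1 was higher in both (0.28 and 0.48) and Dbp lower in both (-0.27 and -0.24), whereas Arntl (-0.29 and 0.16) and Per2 (-0.26 and 0.11) changed sign between them.

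Across the 11 TRAP libraries, none of the 10 relations of level to library number passed Benjamini-Hochberg adjustment. The highest Pearson r were 0.66 for Arntl (permutation p = 0.0306, adjusted p = 0.116, Spearman rho 0.65, permutation p = 0.0342) and 0.64 for Cry2 (permutation p = 0.0348, adjusted p = 0.116, rho 0.57, permutation p = 0.0717). Per2 came next at 0.637 (permutation p = 0.0335, adjusted p = 0.116, rho 0.65, permutation p = 0.0340). The highest rho was 0.69 for Cry1 (permutation p = 0.0231, adjusted p = 0.114), whose Pearson r was 0.59 (permutation p = 0.0614). Without the 2 libraries farthest from the median number, r was 0.48 for Arntl, 0.61 for Cry2, 0.64 for Per2 and 0.38 for Cry1. Taken as deviations from the group means, the relation was 0.84 for Cry1 (exact permutation within groups, p = 0.00376, adjusted p = 0.0376) and 0.86 for Cry2 (p = 0.0101, adjusted p = 0.0506, same permutation test). With the library number as a covariate, edgeR called Cry1 (adjusted p = 0.0253), Cry2 (0.0253) and Nr1d2 (0.0291) in susceptible against resilient mice, beside 5.34% of all genes.

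**Figure D4:**
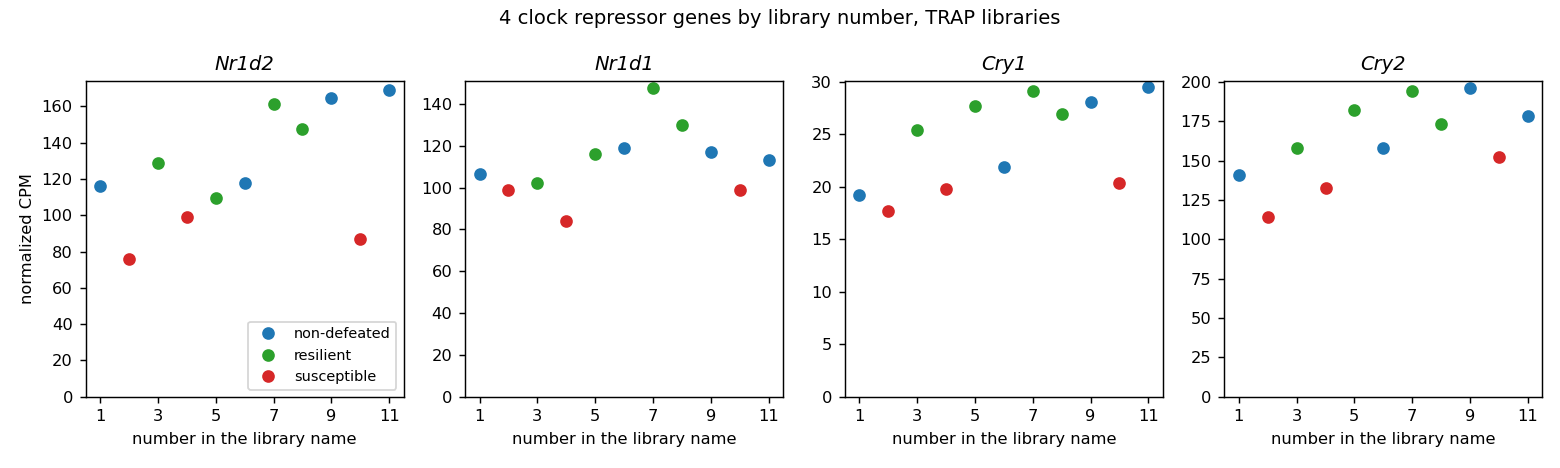
Normalized CPM (y axis, starting at 0) of Nr1d2, Nr1d1, Cry1 and Cry2 in the 11 TRAP libraries against the running number in the library name (x axis), with non-defeated in blue, resilient in green and susceptible in red. Each point is 1 library. The red points lie below the green points in each panel, and for Cry1 the points of each group lie higher at higher numbers except for resilient 8.

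As DBP is a direct output of the loop, Dbp was set against each of the other 9 members over the 11 TRAP libraries. The highest Pearson r were 0.67 with Nr1d1 (permutation p = 0.0269, adjusted p = 0.113), 0.64 with Nr1d2 (permutation p = 0.0312, adjusted p = 0.113) and 0.63 with Cry2 (permutation p = 0.0376, adjusted p = 0.113). The rank correlations were 0.41 (permutation p = 0.214), 0.61 (permutation p = 0.0518) and 0.58 (permutation p = 0.0657). The relation with Nr1d1 rested on 2 libraries, since r was 0.02 without the 2 farthest from the median of Dbp. None of the 9 passed adjustment.

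The clock genes were then set beside 4 lists of related genes. The first held 14 other transcription factors and cofactors of the loop. In susceptible against resilient mice 2 of the 14 were called, both lower, and the median was -0.09. These were Tef, a relative of Dbp that binds the same D-box sites, and Cipc, which encodes an inhibitor of CLOCK. Tef averaged 148 ± 12 CPM in susceptible mice and 199 ± 10 CPM in resilient mice (log2 fold change -0.42, SE 0.08, edgeR adjusted p = 0.0367), and Cipc averaged 58.9 ± 4.5 CPM and 78.0 ± 3.5 CPM (-0.41, SE 0.09, edgeR adjusted p = 0.0393). Neither gene overlapped between the groups (exact permutation p = 0.0571 each, the value that groups of this size without overlap always give). Both calls were lost when TRAP libraries alone were fitted (adjusted p = 0.102 for Tef and 0.103 for Cipc, edgeR), and of 7 fits that left out 1 library, Tef was called in 2 and Cipc in 1. In the same comparison 1 of the 14 was higher and 2 were lower at an unadjusted p under 0.05, beside 10.8% of all genes higher and 10.1% lower. The groups did not overlap for 3 of the 14, and for 15.1% of all genes. Against non-defeated mice none of the 14 was called in either stress group, with the smallest p for Cipc in susceptible mice (-0.38, adjusted p = 0.132) and for Tef in resilient mice (0.14, adjusted p = 1). In TRAP against input 3 of the 14 were higher, such as Ciart (0.72, adjusted p = 0.00458) and Rora (0.99, adjusted p = 0.0150), and 7 were lower, such as Tef (-1.12, adjusted p = 8.25e-08) and Npas2 (-1.92, adjusted p = 1.07e-06), a CLOCK paralog.

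The second list held 16 genes of kinases, a phosphatase, ubiquitin ligases and a deubiquitinase that act on clock proteins. Between stress groups none was called, with the smallest p in susceptible against resilient mice for Btrc (-0.31, edgeR adjusted p = 0.0568), whose ubiquitin ligase targets PER proteins, and a median of -0.09. In that comparison 2 of the 16 were higher and 5 were lower at an unadjusted p under 0.05, beside 10.8% of all genes higher and 10.1% lower. The groups did not overlap for 7 of the 16, of which 4 lower and 3 higher, and for 15.1% of all genes. Btrc also had the smallest p in susceptible against non-defeated mice (-0.31, adjusted p = 0.157), and Gsk3b in resilient against non-defeated mice (-0.15, adjusted p = 1). Without the libraries with thalamic markers, 4 of the 16 were called in susceptible against resilient mice, in the fit that called 7.06% of all genes. In TRAP against input 7 of 16 were higher, such as Fbxl21 (1.45, adjusted p = 4.77e-05) and Csnk2b (0.54, adjusted p = 5.25e-05), and 4 were lower, such as the PER kinase gene Csnk1d (-0.77, adjusted p = 2.73e-05).

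The last 2 lists held genes with known responses to glucocorticoids or to neuronal activity, both of which also act on Per1. Of 12 glucocorticoid-responsive genes none was called between stress groups, with the smallest p for Cdkn1a in susceptible mice, set against either resilient (0.58, edgeR adjusted p = 0.0665) or non-defeated mice (0.65, adjusted p = 0.145), and for Ddit4 in resilient against non-defeated mice (-0.16, adjusted p = 1). Of 12 activity-regulated genes none was called either, with the smallest p for Dusp1 in susceptible mice, set against either resilient (-0.29, edgeR adjusted p = 0.225) or non-defeated mice (-0.42, adjusted p = 0.221), and for Fosb in resilient against non-defeated mice (-0.52, adjusted p = 1). In TRAP against input 1 glucocorticoid-responsive gene was higher, Tsc22d3 (1.17, adjusted p = 2.03e-06), and 8 were lower, such as Fkbp5 (-1.47, adjusted p = 1.12e-05) and Errfi1 (-0.50, adjusted p = 0.000336). Of the activity-regulated genes 3 were higher in TRAP, such as Dusp1 (1.59, adjusted p = 3.15e-07) and Fos (1.25, adjusted p = 1.88e-05), and 5 were lower, such as Bdnf (-1.998, adjusted p = 3.80e-07) and Egr1 (-1.67, adjusted p = 3.76e-06). The median in susceptible against resilient mice was 0.11 for the glucocorticoid list and -0.10 for the activity list. At an unadjusted p under 0.05, 4 of 12 glucocorticoid-responsive genes were higher, beside 10.8% of all genes. At the same threshold 1 of 12 activity-regulated genes was lower, beside 10.1% of all genes. The groups did not overlap for 1 gene of the glucocorticoid list and 0 of the activity list, and for 15.1% of all genes.

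**Figure D5:**
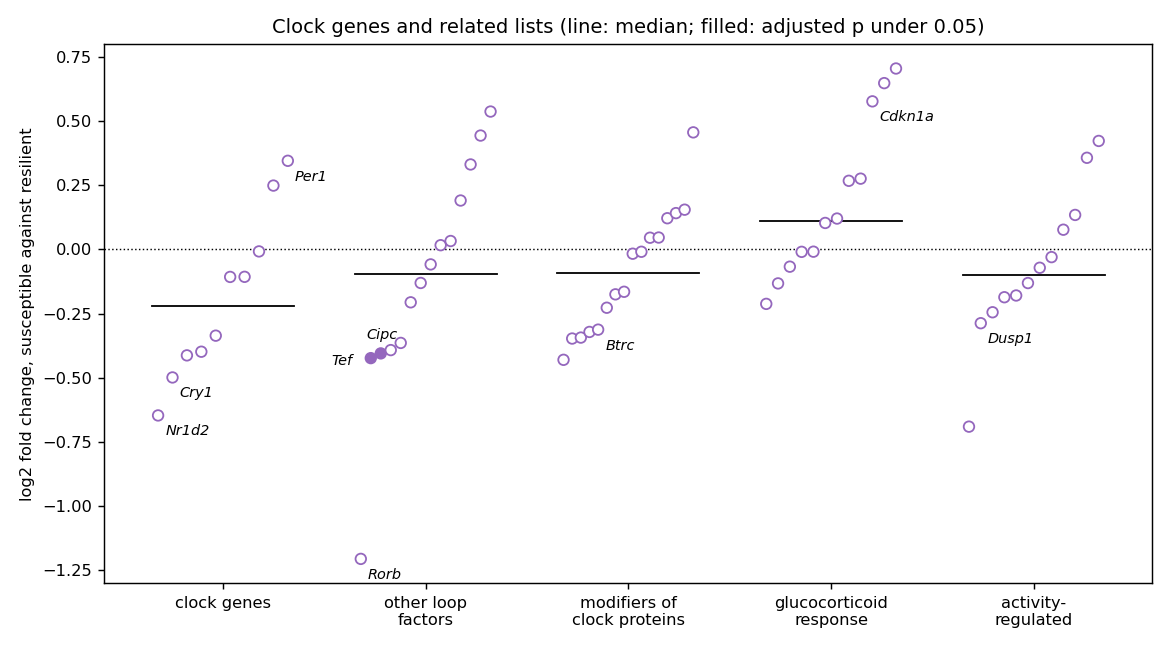
Difference on the log2 scale between susceptible and resilient mice (y axis) for each gene of 5 lists, ordered by value within a list. Each point is 1 gene, horizontal lines mark list medians, and filled points (Tef and Cipc) mark an adjusted p under 0.05. Rorb, labelled because it lies lowest (-1.21, adjusted p = 0.273), ranged from 5.37 to 8.21 CPM in susceptible and from 5.79 to 38.4 CPM in resilient mice.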

How the data were processed

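Ribosome-bound mRNA (11 TRAP libraries) and total RNA (3 input libraries) of mouse hippocampus were sequenced as single reads, and the authors deposited raw read counts per gene, from STAR 2.5.3a and HTSeq on mm10 per the labels; the strand setting of the counting was not given in the sources used here. Groups came from the labels. Identifiers were named with GENCODE M21 (37693 of 39017). The test was edgeR 4.0.16 under R 4.3.3 (TMM, filterByExpr, quasi-likelihood test, all 14 libraries in 1 model without covariates, Benjamini-Hochberg over 21298 genes, threshold 0.05, limma 3.58.1 loaded). No column was left out. Replicates are labelled as separate samples, and their counts differed beyond sampling noise in every pair (chi-square per degree of freedom at least 13.2).

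Normalized CPM and RPKM were computed from these counts. Exact permutation tests (scipy 1.17.1, Python 3.11.15) used log2 CPM with a prior count of 2 and were 2-sided, and relations used 100000 permutations. Figures were drawn with matplotlib 3.10.9. Alternatives were the likelihood ratio test, DESeq2 1.42.0 on 2 groups, RLE or total-count scaling, other filters (none, or at least 10 counts in every library), TRAP libraries or 2 groups alone, the library number as covariate, and leaving out each library. Fits without the 4 libraries over 100 CPM of thalamic markers, the differences within library numbers, all alternatives for the related lists, and the shares of all genes called under each alternative were chosen after seeing the data. The scripts were tested on simulated data.

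The 10 members and all lists were chosen with earlier results of these data known. Named genes were all members, in each related list the 2 genes with the smallest p per direction among those called, or, with none called, the gene with the smallest p, and the 5 genes most correlated with Dbp and with Arntl. The overlapping genes of the opposite strand and Rorb were named after their values were seen. One gene that this rule names is not reported here.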

Additional observations from a re-analysis of the deposited data

Results flagged for a closer look

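In no group of 4 libraries did a member or either of Tef and Cipc show a library whose gap to its nearest neighbour passed Dixon's 95% critical value, among 24 groups examined, whereas chance flags about 1 group in 20. Susceptible and resilient mice, each set against non-defeated mice, differed for 2 genes of the loop in the fit to all 14 libraries. Since both comparisons share the non-defeated mice, this difference is the comparison of susceptible with resilient mice given above and no further test. For Tef the log2 fold change of susceptible mice minus that of resilient mice was -0.42 (edgeR adjusted p = 0.0367), from -0.29 and 0.14 against the shared non-defeated mice. For Cipc it was -0.41 (adjusted p = 0.0393), from -0.38 and 0.02 against the same mice. Both calls were lost when TRAP libraries alone were fitted (adjusted p = 0.102 for Tef and 0.103 for Cipc, edgeR). Leaving out 1 library kept Tef called without susceptible 10 (adjusted p = 0.0376) and susceptible 4 (0.0483). It lost the call of Tef without resilient 3 (0.0505), resilient 5 (0.0526), resilient 7 (0.0979), resilient 8 (0.0950) and susceptible 2 (0.147). Cipc stayed called without susceptible 10 (adjusted p = 0.0425) and lost its call without each other library, with adjusted p from 0.0527 to 0.152. The second start of Tef held an E-box 138 bases upstream and the first start of Cipc one 17 bases upstream. The second start of Cipc held none of the letters searched, and all bases before the first start of Tef were left out as exonic. An E-box was present in 6.02% of all full windows.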

How the results depend on the processing

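Of the fold changes recomputed under other settings, those of the members in every comparison and of Tef and Cipc in susceptible against resilient mice, 628 kept their direction and side of the threshold, 26 lost a call, 19 gained one and 31 changed sign; the cause was not tested. In TRAP against input, Cry1 was -0.053 with total counts and -0.12 without the thalamic libraries. In resilient against non-defeated mice without the thalamic libraries, Clock was 0.087, Per2 0.11, Nr1d2 0.13 and Dbp -0.0062, and Nr1d2 was 0.000218 with the library number as covariate. In susceptible against non-defeated mice Arntl was 0.011 with that covariate, and without the thalamic libraries Arntl was 0.10 and Clock 0.10. In susceptible against resilient mice Clock was 0.0037 with RLE, 0.0057 with total counts and 0.016 without the thalamic libraries.

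In susceptible against non-defeated mice, the likelihood ratio test called 1 member, 1 loop factor and 1 glucocorticoid-responsive gene, and DESeq2 called 1 member and 1 glucocorticoid-responsive gene, beside 0.887% and 0.617% of all genes. In susceptible against resilient mice, members called were 4 by the likelihood ratio test, 3 by DESeq2, 3 with the library number as covariate, 3 without the thalamic libraries, 1 with total counts and 1 with the stricter filter, beside 5.16%, 6.01%, 5.34%, 7.06%, 1.76% and 3.03% of all genes in that order. Loop factors called were 1 without a filter, 0 in TRAP libraries alone and 0 in the 2 groups alone, where 0.431%, 0.00482% and 0% of all genes were called. Modifiers of clock proteins called were 2, 2, 3, 4, 1 and 1 in the order given for the members. Glucocorticoid-responsive genes called were 1 by the likelihood ratio test, 2 by DESeq2 and 2 with the covariate. The relation of Clock to the library number was -0.24 without the 2 farthest libraries and -0.048 in deviations, and that of Dbp to Clock 0.42 without the 2 farthest.

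Leaving out 1 library, loop factors called in TRAP against input ranged from 6 to 9, and in susceptible against resilient mice members called ranged from 0 to 1 (Nr1d2 without resilient 5, adjusted p = 0.0461, and Cry2 without susceptible 10, 0.0394, edgeR), loop factors from 0 to 2, modifiers from 0 to 1 and all genes called from 0.0282% to 4.88%. Fold changes that crossed 0 ranged, in resilient against non-defeated mice, from -0.048 to 0.14 for Arntl, from -0.0034 to 0.15 for Cry2, from -0.14 to 0.039 for Nr1d2 and from -0.064 to 0.22 for Dbp. In susceptible against non-defeated mice they ranged from -0.17 to 0.091 for Arntl and from -0.20 to 0.000243 for Per3, and against resilient mice from -0.21 to 0.046 for Arntl, from -0.058 to 0.056 for Clock and from -0.29 to 0.15 for Per2. No library number occurs in more than 1 group, and the meaning of the numbers was not given. Whether input and non-defeated TRAP libraries came from the same mice could therefore not be told from the numbers. No paired analysis was made, and the test against input took the libraries as independent.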

Other observations

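Over the 11 TRAP libraries, the genes whose log2 CPM was most like that of Dbp, among 14410 genes with an average log2 CPM above 1, were E2f1 (Pearson r = 0.94), Gm15511 (0.94), Osbpl5 (0.92), Eml3 (0.92) and Sphk2 (0.92). Sphk2 overlaps Dbp on the opposite strand. Those most like Arntl were Gm45902 (Pearson r = 0.95), Eif2s1 (0.94), Bbs2 (0.93), Orc4 (0.93) and Ppp6r3 (0.92). These are descriptions over libraries that share groups and library numbers.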
